A study of Drosophila melanogaster with 10 samples.

Results

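Bromodomains are protein modules that bind acetylated lysines, above all those on histone tails, and the genes described here encode 10 *Drosophila* bromodomain proteins of very different kinds. They are *tbrd-1* (CG13597), *tbrd-2* (CG7229), *tbrd-3* (CG30417), *Br140*, *BRWD3*, *polybromo*, *nej*, *Gcn5*, *brm* and *Taf1*. They were chosen by name, and every probe set that the platform annotation pairs with exactly 1 of them was taken. This gave 10 probe sets of 9 genes, of 18769 probe sets tested in all. *nej* had 2 probe sets and the other 8 genes 1 each. *Gcn5*, an acetyltransferase gene, has no such probe set in the annotation used and was not analysed here. The probe sets measure genes on chromosome arms 3R (*tbrd-1*, *BRWD3*, *polybromo*, *Taf1*), 2R (*tbrd-2*, *tbrd-3*, *Br140*), X (*nej*) and 3L (*brm*) of the Release 6 assembly.

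The tested animals were males homozygous for the allele *tbrd-1*1 (genotype tbrd-11/tbrd-11 in the labels), in which a P element carrying *white* was remobilized into the *tbrd-1* gene. The controls were w1118 males, called wild-type. Both groups were dissected at 0 to 2 days of age, and total RNA from whole testes was hybridized to Affymetrix Drosophila Genome 2.0 arrays. There were 5 mutant and 5 wild-type arrays, each with independent RNA pooled from 25 animals, so that the spread between arrays is a spread between pools. The mutant is 1 allele, and differences of genetic background between it and w1118 cannot be told apart from the effect of the mutation.

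In the testis, germ cells pass from spermatogonia through primary spermatocytes, where transcription is very active, to spermatids that are nearly silent. tBRD-1, tBRD-2 and tBRD-3 are testis-specific acetyl-lysine readers of primary spermatocytes. The other proteins act in many tissues, and most of them sit in acetyltransferase complexes, chromatin remodelers or the general transcription factor TFIID. Testis-specific relatives of TFIID subunits, the tTAFs, work in the same spermatocytes. Males without tBRD-1 are sterile although their germ cells complete meiosis.

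Signal intensities are linear values of the deposited table, normalized by the authors with RMA (robust multi-array average) and held as whole numbers. Log2-fold changes are differences of mean log2 intensity, mutant minus wild-type, tested with limma, which the study names for its own calls, and adjusted by Benjamini-Hochberg over all probe sets. Called probe sets are those that met both thresholds of the study, 0.05 for the adjusted p and 1 for the size of the log2-fold change (the fold minimum). Results on the adjusted p alone are given beside these. Over all 18769 probe sets 3.54% were called, 1.18% as higher and 2.36% as lower. On the adjusted p alone 36.2% passed, 21.6% as higher and 14.7% as lower, and the median log2-fold change of all probe sets was 0.07. Array medians ran from 68 to 71 in the mutant and from 70 to 78 in wild-type. Centring every array on its median shifted that median upwards by 0.10. Probe sets differ in how strongly they hybridize, so the signal of one gene is not set against that of another.

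The tissue labels were checked against marker genes. Mean log2 intensity of 16 spermatid genes was 12.22 to 12.26 on the mutant arrays and 12.16 to 12.30 on the wild-type arrays. For 14 spermatocyte genes it was 8.37 to 8.62 in the mutant and 8.09 to 8.45 in wild-type. Accessory gland genes, 11 in all, were bright on every array, so that the RNA is not of testis alone. Their mean log2 intensity was 12.91 to 13.14 in the mutant and 12.98 to 13.10 in wild-type. Other tissue that is not testis differed between arrays. Mean log2 intensity of 19 gut enzyme genes was above 7 on mutant replicate 3 and wild-type replicates 1, 3 and 4. That of the ejaculatory bulb genes *Ebp* and *EbpII* was above 10 on mutant replicates 2, 4 and 5 and wild-type replicates 2 and 3. The first are called gut-rich arrays and the second *Ebp*-rich arrays. Calls of named genes at the fold minimum that change without them, and member values that move by over 1.5 times, are given both ways. Passes of list genes on the adjusted p alone are not all given so. In whole testes, fewer cells of a type and less RNA per cell cannot be told apart.

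Of the 10 bromodomain probe sets, *tbrd-1* itself was called as lower and none of the other 9 was called, where limma put 4 of them under 0.05 without adjustment, and the methods' t-test called 0. The test is so named here although it appears in a volcano plot legend of the study and not in its Methods. On the adjusted p alone, *Br140*, *tbrd-2* and the brighter probe set of *nej* were higher in the mutant, 3 of 9. No probe set but *tbrd-1* was lower on any of these criteria, and it alone had all mutant arrays below all wild-type arrays, as did 10.3% of all probe sets. The median log2-fold change of the 9 was 0.24. The share of higher probe sets stands beside a background of 21.6% and is too small a count to set the genes apart from the rest of the table.

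**Figure D1:**
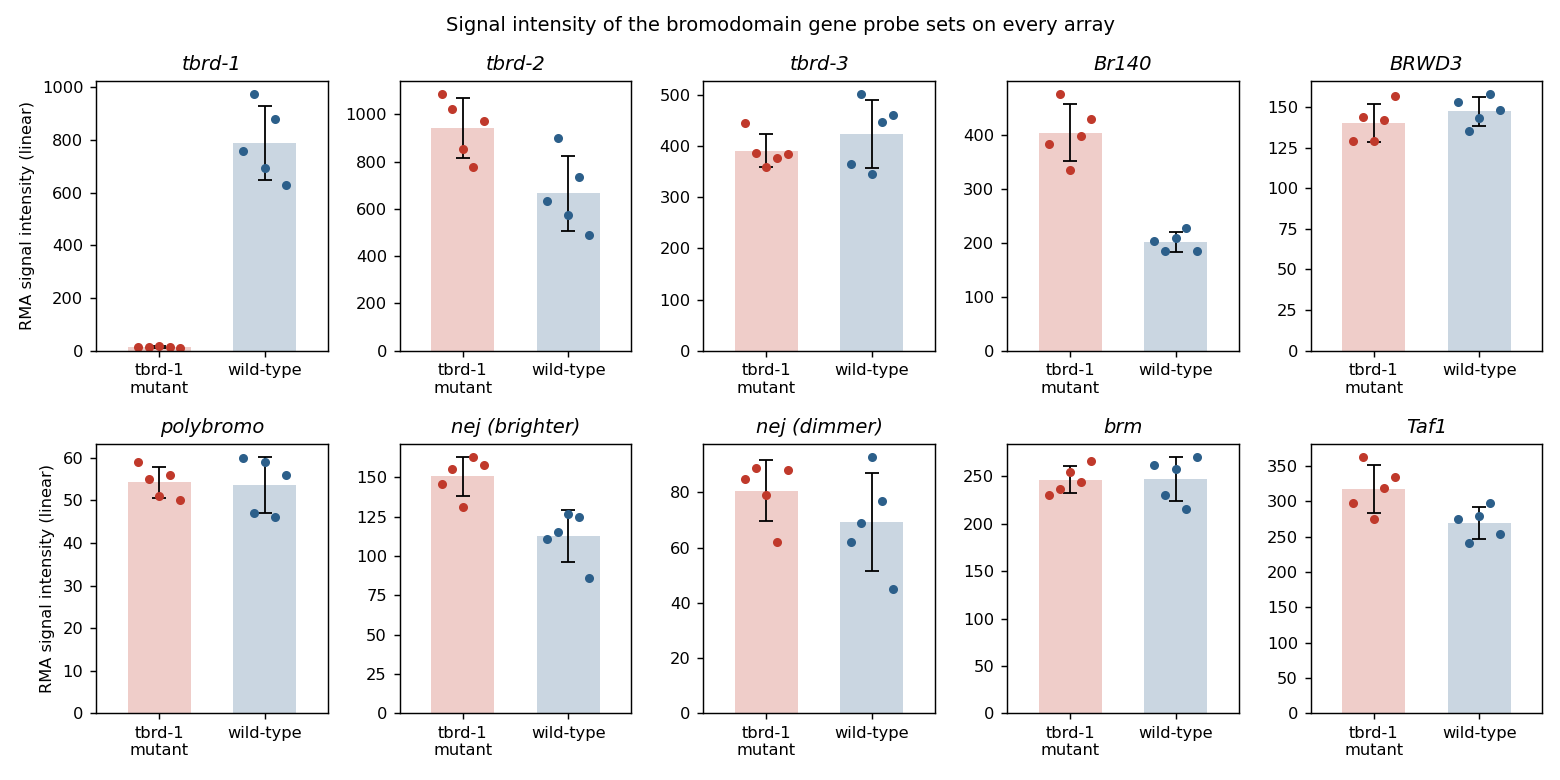
Linear RMA signal intensity (y axis, from 0) of each bromodomain gene probe set on the 5 *tbrd-1* mutant arrays (red, left) and the 5 wild-type arrays (blue, right). Points are arrays in order of replicate number, bars are means and error bars are SD. The groups stand apart for *tbrd-1*, *Br140* and the brighter probe set of *nej*, and overlap in the other panels.

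The mutated gene *tbrd-1*, which encodes a BET-like protein with a pair of bromodomains, had intensities of 14, 14, 16, 15 and 10 on mutant replicates 1 to 5, against 758, 975, 692, 881 and 630 on wild-type replicates 1 to 5. Every mutant array lay far below every wild-type array, which fits the genotype labels of all 10 samples. The log2-fold change was -5.83 (95% interval -6.15 to -5.51, limma adjusted p = 4.4e-10). The exact permutation test over arrays gave a two-sided p of 0.00794, the smallest that 5 against 5 arrays allow. The mutant intensity was higher than that of 12.9% of probe sets, near the dim end of the arrays, so the size of the drop is not exact. *TfIIA-S*, the neighbour of *tbrd-1*, had 625 ± 67.4 in the mutant and 1435 ± 157 in wild-type (SD, n = 5 each), a log2-fold change of -1.20 (limma adjusted p = 2.4e-06). By qPCR the study found *TfIIA-S* reduced in mutant testes, but not in mutant testes carrying a *tbrd-1-eGFP* transgene. It took the insertion to have apparently left *TfIIA-S* itself unaffected, which was not tested here.

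*tbrd-2* encodes a BET protein with a single bromodomain and an extra-terminal domain, the part through which BET proteins bind partners. It had intensities of 1086, 1024, 853, 778 and 972 on mutant replicates 1 to 5, against 635, 899, 572, 735 and 489 on wild-type replicates 1 to 5. On mutant replicates 1, 2 and 5 the signal was above every wild-type array, whereas mutant replicates 3 and 4 lay below wild-type replicate 2. The means were 943 ± 126 in the mutant and 666 ± 158 in wild-type (SD, n = 5 each). The log2-fold change was 0.52 (standard error 0.15, 95% interval 0.18 to 0.86, limma adjusted p = 0.022), a rise of 43.6%. The exact permutation test over arrays gave a two-sided p of 0.0238. Past the threshold by little, *tbrd-2* no longer passed without mutant replicate 1 (0.47, limma adjusted p = 0.056). With the methods' t-test the log2-fold change was the same and the adjusted p was 0.052. It also did not pass without the gut-rich arrays (0.53, limma adjusted p = 0.21), where 6 arrays remained. Without the *Ebp*-rich arrays (0.66, limma adjusted p = 0.12), where 5 remained, it did not pass either. In both of these settings the log2-fold change was no smaller than over all arrays, and fewer arrays were tested.

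Among the wild-type arrays *tbrd-1* and *tbrd-2* were ordered alike. Both were brightest on replicate 2, followed by replicates 4, 1, 3 and 5. The level of the spermatocyte genes did not have this order, being highest on wild-type replicates 4 and 2 and lowest on replicate 3. With 5 arrays this is a description, and its relation to cell content was not tested.

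*tbrd-3* encodes the smallest of the testis BET proteins, with a bromodomain and the conserved N-terminal part of the extra-terminal domain. Its intensities were 445, 387, 360, 377 and 384 on mutant replicates 1 to 5, against 365, 502, 346, 447 and 461 on wild-type replicates 1 to 5. The groups overlapped over most of their range, and wild-type spread more widely than the mutant. The means were 391 ± 32.2 in the mutant and 424 ± 66.2 in wild-type (SD, n = 5 each). The log2-fold change was -0.11 (limma adjusted p = 0.44), and its 95% interval of -0.34 to 0.13 covers changes of the signal of -21.1% to 9.06%. It was -0.28 (limma adjusted p = 0.091) without the gut-rich arrays and -0.0048 with median centring. Single arrays left out moved it between -0.18, without wild-type replicate 3, and -0.044, without wild-type replicate 2.

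*Br140* moved most among the genes other than *tbrd-1*. It encodes the fly counterpart of the mammalian BRPF proteins, scaffolds that hold MYST-type histone acetyltransferases such as Enok on chromatin. Its intensities were 383, 476, 334, 398 and 429 on mutant replicates 1 to 5, against 204, 185, 209, 228 and 184 on wild-type replicates 1 to 5. The lowest mutant array, replicate 3, stood well above the highest wild-type array, replicate 4. Mutant arrays averaged 404 ± 52.9 and wild-type arrays 202 ± 18.3 (SD, n = 5 each). The log2-fold change was 0.99 (standard error 0.10, 95% interval 0.78 to 1.21, limma adjusted p = 1.5e-05), and the exact permutation test over arrays gave a two-sided p of 0.00794. It exceeded that of 98.7% of all probe sets tested. Among all probe sets 13.6% likewise had no overlap and were higher in the mutant.

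The signal of *Br140* thus doubled to within its error, and it missed the fold minimum in the second decimal. The adjusted p stayed at most 0.05 in all 21 alternatives run on this value, with log2-fold changes from 0.81 to 1.19, and in 7 of them *Br140* crossed the fold minimum. The highest value, 1.19, was obtained without the gut-rich arrays, and the lowest, 0.81, without the *Ebp*-rich arrays. The ratio of the arithmetic means gave a log2-fold change of exactly 1.

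**Figure D2:**
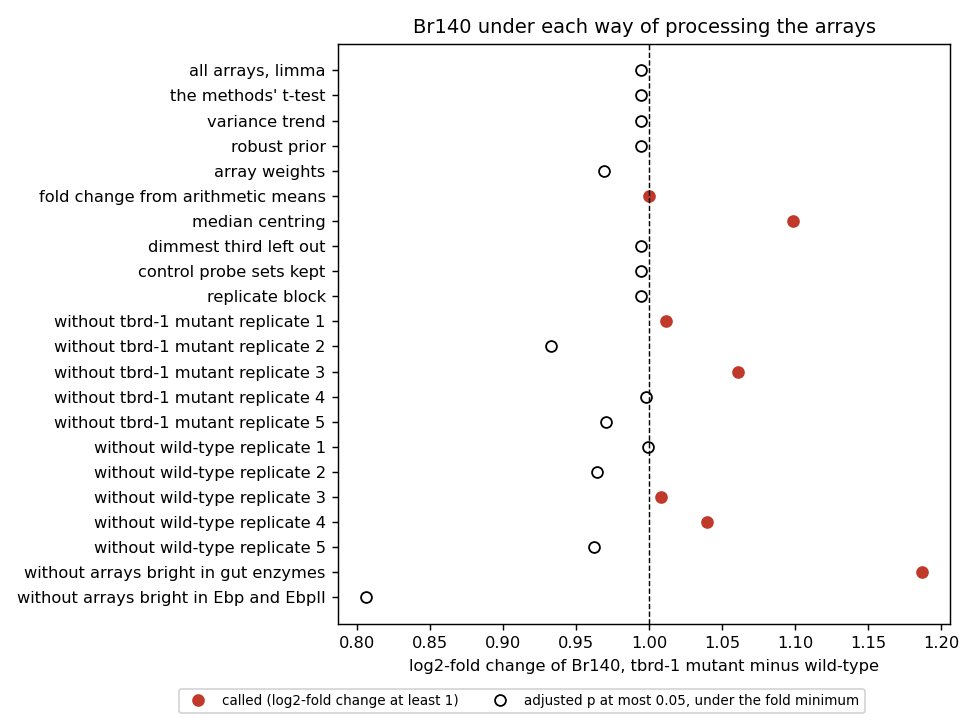
Log2-fold change of *Br140*, mutant minus wild-type (x axis), with all arrays in limma (top row) and in each alternative (other rows). Filled points are calls at the fold minimum (dashed line at 1) and open points passed on the adjusted p alone. All values lie between 0.81 and 1.19, on either side of the line.

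Of the 5 partner genes of Br140 and BRWD3, 2 were higher and 1 was lower on the adjusted p alone, and 0 passed without the *Ebp*-rich arrays. With 1 probe set per gene and all arrays, 2726 of all 11982 genes were higher and 2303 lower on that criterion. *Eaf6*, a subunit gene of the Enok complex, was lower, with 354 ± 32.3 in the mutant and 514 ± 73.8 in wild-type (SD, n = 5 each) and a log2-fold change of -0.53 (limma adjusted p = 0.0023). Without the *Ebp*-rich arrays *Eaf6* had -0.60 (limma adjusted p = 0.064). *Ing5*, also of the Enok complex, had a log2-fold change of 0.27 (limma adjusted p = 0.019). It did not pass without the gut-rich arrays (0.22, limma adjusted p = 0.24). *enok*, the acetyltransferase gene, had 0.28 with an adjusted p of 0.054 from limma.

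*nej* encodes the fly CBP, the acetyltransferase behind acetylation of histone H3 at enhancers. Its brighter probe set had 146, 155, 131, 163 and 158 on mutant replicates 1 to 5, against 111, 115, 127, 125 and 86 on wild-type replicates 1 to 5. The groups did not overlap, though by a narrow margin between mutant replicate 3 and wild-type replicate 3. The log2-fold change was 0.43 (standard error 0.11, 95% interval 0.19 to 0.66, limma adjusted p = 0.0095), and the exact permutation test over arrays gave a two-sided p of 0.00794. Without the *Ebp*-rich arrays it was 0.38 (limma adjusted p = 0.22) on 5 arrays, and without the gut-rich arrays 0.64 (limma adjusted p = 0.014) on 6. The dimmer probe set of *nej* had 85, 89, 79, 62 and 88 on mutant replicates 1 to 5, against 62, 69, 93, 77 and 45 on wild-type replicates 1 to 5. Here the groups overlapped, with wild-type replicate 3 the brightest array of all. Its log2-fold change was 0.25 (95% interval -0.13 to 0.63, limma adjusted p = 0.28). It was 0.10 without wild-type replicate 5, 0.52 without the gut-rich arrays and 0.45 without the *Ebp*-rich arrays, and passed in none of these. Both probe sets were lowest on wild-type replicate 5 and, within wild-type, highest on replicate 3.

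*Taf1* encodes the largest subunit of TFIID, whose tandem bromodomains bind acetylated histone H4. Its intensities were 297, 363, 275, 318 and 334 on mutant replicates 1 to 5, against 275, 241, 279, 298 and 253 on wild-type replicates 1 to 5. Mutant replicates 2, 4 and 5 lay above every wild-type array, and replicates 1 and 3 within the wild-type range. The log2-fold change was 0.24 (95% interval 0.05 to 0.42, limma adjusted p = 0.051), just outside the threshold. It passed without mutant replicate 3 (0.29, limma adjusted p = 0.024) and without wild-type replicate 4 (0.27, limma adjusted p = 0.039). It was 0.41 (adjusted p = 0.029) without the gut-rich arrays and 0.06 (adjusted p = 0.73) without the *Ebp*-rich arrays. On the mutant arrays *Taf1* and *Br140* were ordered alike, brightest on replicate 2 and then on replicates 5, 4, 1 and 3, which was not tested.

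*brm*, *polybromo* and *BRWD3* did not pass the test. *brm* encodes the ATPase of the Brahma chromatin remodeling complexes. It had 230, 237, 255, 244 and 266 on mutant replicates 1 to 5, against 262, 230, 258, 216 and 271 on wild-type replicates 1 to 5. The mutant range lay within that of wild-type, with a log2-fold change of -0.0025 (95% interval -0.17 to 0.16, limma adjusted p = 0.99), or 0.10 with median centring. For *brm* it was -0.034 without the gut-rich arrays and -0.037 without the *Ebp*-rich arrays.

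*polybromo* encodes the multi-bromodomain subunit of the PBAP form of the Brahma complex. It was dim on all arrays, with 59, 55, 51, 56 and 50 on mutant replicates 1 to 5, against 60, 47, 59, 46 and 56 on wild-type replicates 1 to 5. The groups overlapped, and the log2-fold change was 0.02 (95% interval -0.17 to 0.22, limma adjusted p = 0.86). It was 0.098 without the gut-rich arrays and 0.13 with median centring. For *BRWD3*, which encodes a WD-repeat protein that works with the Cul4 ubiquitin ligase, the intensities were 129, 144, 129, 142 and 157 on mutant replicates 1 to 5. They were 153, 135, 143, 158 and 148 on wild-type replicates 1 to 5. Mutant replicates 1 and 3 lay below the wild-type range and the others within it. Its log2-fold change was -0.07 (95% interval -0.23 to 0.08, limma adjusted p = 0.43). It was -0.25 (limma adjusted p = 0.092) without the *Ebp*-rich arrays, 0.013 without the gut-rich arrays and 0.029 with median centring, and single arrays left out gave -0.12 to -0.045. For each of these 3 genes the interval over all arrays stays within a change of 16.4% in either direction.

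**Figure D3:**
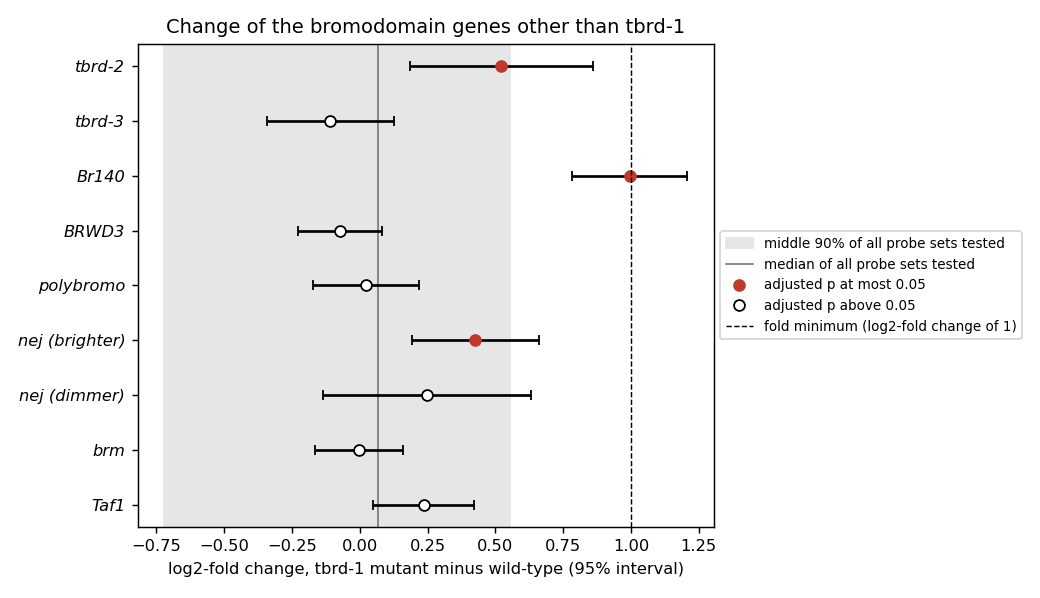
Log2-fold change, mutant minus wild-type (x axis), of the 9 bromodomain probe sets other than that of *tbrd-1*, with 95% intervals from limma. The grey band holds the middle 90% of all probe sets tested (-0.72 to 0.55), and *Br140* is the single point outside it.

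Replicate error differed among the genes. The SD of log2 intensity within a group was lowest for *brm* in the mutant, 0.08, and highest for the dimmer *nej* probe set in wild-type, 0.39. For *tbrd-2* it was 0.20 in the mutant and 0.34 in wild-type, and for *Br140* 0.19 in the mutant and 0.13 in wild-type. The wild-type arrays thus limit the precision for *tbrd-2* and *nej*, and the mutant arrays for *Br140*.

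Other genes of the same protein classes and complexes were followed as lists, with 1 probe set per gene. Of 10 other bromodomain genes 6 had a probe set with 1 gene. *fs(1)h*, the BET gene used throughout the fly, was not among them and was not analysed here. None of the 6 was called with the fold minimum, by limma or the methods' t-test, with 4 at an unadjusted p under 0.05 from limma. On the adjusted p alone 3 were lower and 1 was higher, and the median log2-fold change was -0.20. *Brd7-9*, whose mammalian counterparts are SWI/SNF subunits, had 97.6 ± 6.02 in the mutant and 128 ± 7.47 in wild-type (SD, n = 5 each), a log2-fold change of -0.40 (limma adjusted p = 5.8e-04). *bon*, a gene of the TIF1 family, had a log2-fold change of -0.37 (adjusted p = 0.0036). *Brd8*, a Tip60 complex gene, was higher with 0.32 (adjusted p = 0.0037). Without the *Ebp*-rich arrays 1 of the 6 passed. Of the 6 genes, *Brd8* (higher), *Brd7-9* and *bon* (both lower) had no overlap of mutant and wild-type arrays, as did 24% of all probe sets. With 1 probe set per gene, as in this list, 1949 of all 11982 genes were higher and 1652 lower without overlap. The 3 genes are those of the list with the smallest p, so their lack of overlap largely follows from that and does not set the list apart. *dikar* was lower with -0.46 (limma adjusted p = 0.037). A dimmer probe set of the gene gave -0.10, at 25 in the mutant and 26.6 in wild-type, where the low signal can show little of a change. The list also held *E(bx)*, the large subunit gene of the NURF remodeler, with 0.22 (adjusted p = 0.27), and *Zmynd8* with -0.04 (adjusted p = 0.72).

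Among 5 tTAF genes, *mia* and *Taf12L* were called as higher and *can* as lower, each by more than any measured bromodomain gene but *tbrd-1*, and the median log2-fold change was 0.77. Over all 11982 genes 168 were called as higher and 367 as lower. *mia*, a relative of Taf6, had 925 ± 93.9 in the mutant and 296 ± 38.5 in wild-type (SD, n = 5 each), a log2-fold change of 1.65 (limma adjusted p = 3.8e-07). *Taf12L*, a relative of Taf12, had a log2-fold change of 1.40 (adjusted p = 9.7e-07). Its dimmer probe set gave 0.07, at 19.2 in the mutant and 18.2 in wild-type. That is near the dim end of the arrays, where little of a change can show. *can*, a relative of Taf5, had 253 ± 27.2 in the mutant and 546 ± 66.9 in wild-type (SD, n = 5 each), a log2-fold change of -1.11 (limma adjusted p = 9.6e-06). *sa*, a relative of Taf8, was higher on the adjusted p alone, with a log2-fold change of 0.77 (adjusted p = 9.6e-05). *nht*, a relative of Taf4, averaged 469 in the mutant and 473 in wild-type.

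The general TFIID genes, partners of Taf1, shifted less. Of 13 genes 11 had a probe set with 1 gene, and 5 were higher and 0 lower on the adjusted p alone. At an unadjusted p under 0.05 limma, and at an adjusted p the methods' t-test, also gave 5 higher and 0 lower. Over all 11982 genes with 1 probe set each, 2726 were higher and 2303 lower on the adjusted p alone. The median log2-fold change of the 11 was 0.15, against 0.03 over those genes and 0.07 over all probe sets. *Taf7* had 65.6 ± 6.84 in the mutant and 46.6 ± 4.45 in wild-type (SD, n = 5 each), a log2-fold change of 0.49 (limma adjusted p = 0.0011). *Taf6* had 0.36 and *Taf9* 0.38, and *Tbp*, the gene of the TATA box binding protein, had a log2-fold change of 0.01 (adjusted p = 0.94). None of the 11 reached the fold minimum. On the adjusted p alone 2 of them passed without the gut-rich arrays and 2 without the *Ebp*-rich arrays.

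Of 8 partner genes of Brm and Polybromo 6 were measured, and 2 were higher on the adjusted p alone. These were *Bap170*, with 423 ± 39.3 in the mutant and 315 ± 12.2 in wild-type (SD, n = 5 each) and a log2-fold change of 0.42 (limma adjusted p = 6.2e-04), and *e(y)3* with 0.53 (adjusted p = 0.0035). Both encode subunits of PBAP, the form of the complex that also holds Polybromo, whose own gene did not pass the test. *osa*, which encodes a subunit of the BAP form, had -0.21 (limma adjusted p = 0.054). It passed in 4 alternatives, such as leaving out wild-type replicate 2 (-0.25, limma adjusted p = 0.034), and had -0.11 with median centring. No difference between the forms was tested. The core subunit genes *mor*, *Snr1* and *Bap60* had log2-fold changes of -0.04, -0.12 and 0.04. On the adjusted p alone 2726 of all 11982 genes were higher and 2303 lower. The median of the 6 was -0.0027. At an unadjusted p under 0.05 from limma 1 was lower. Without the *Ebp*-rich arrays 0 of the 6 passed, with *Bap170* at 0.29 (limma adjusted p = 0.055).

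Although *Gcn5* was not measured, 18 of 22 genes of its complexes SAGA and ATAC were. On the adjusted p alone 8 were higher and 1 was lower, where 2726 and 2303 of all 11982 genes were. The median log2-fold change was 0.16, and none of the 18 reached the fold minimum. Without adjustment limma put 9 higher and 1 lower gene under 0.05, and the methods' t-test gave 8 and 1 after adjustment. *Sgf29*, a subunit of both complexes, had 190 ± 13.1 in the mutant and 135 ± 12.3 in wild-type (SD, n = 5 each), a log2-fold change of 0.50 (limma adjusted p = 4.3e-04). *Atac2*, an acetyltransferase gene of ATAC, had 0.52 (adjusted p = 8.6e-04). *wda*, a SAGA gene, was the lower one with -0.33 (limma adjusted p = 0.0030), and it did not pass with median centring (-0.22, limma adjusted p = 0.057). Without the gut-rich arrays 4 of the 18 passed, and without the *Ebp*-rich arrays 0 did. The partners of BRWD3, *Cul4* and *pic*, had log2-fold changes of -0.07 (adjusted p = 0.33) and 0.24 (limma adjusted p = 0.021). *pic* passed on the adjusted p alone. It did not pass without mutant replicate 1 (0.20, limma adjusted p = 0.056) or without mutant replicate 5 (0.22, limma adjusted p = 0.052). Nor did it pass without the *Ebp*-rich arrays (0.17, limma adjusted p = 0.41).

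**Figure D4:**
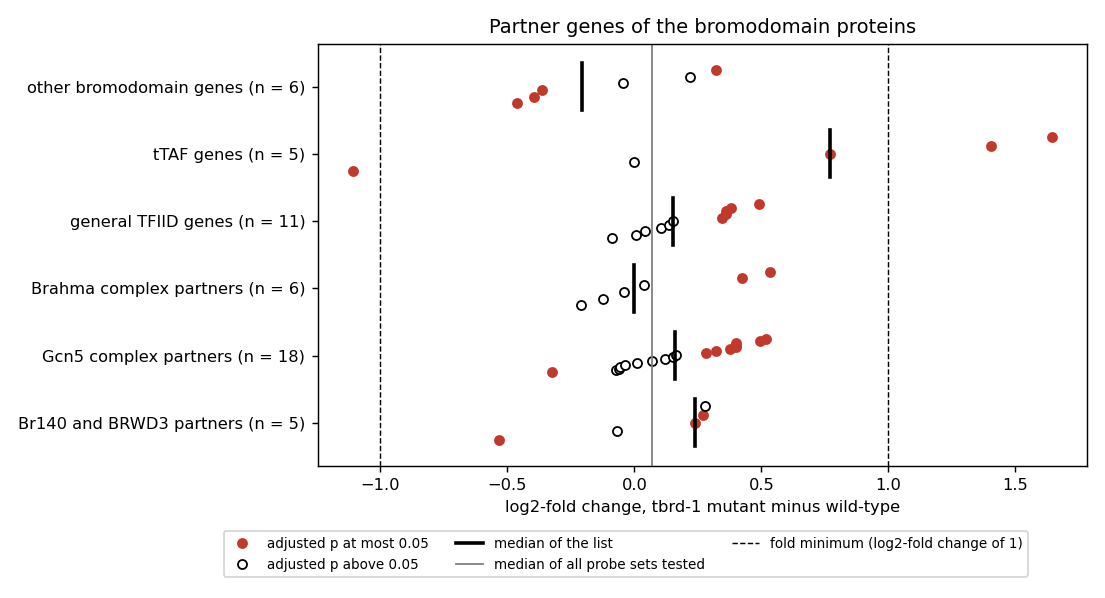
Log2-fold change, mutant minus wild-type (x axis), of each measured gene in 6 lists of related or partner genes, with 1 probe set per gene. Filled points passed on limma's adjusted p, black bars are list medians and the grey line is the median of all probe sets, 0.07. With 1 probe set per gene, the median over all genes was 0.03. *mia*, *Taf12L* and *can* of the tTAF list are the points beyond the fold minimum.

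The profiles most like those of the *tbrd* genes were sought over the 10 arrays by the root mean square difference of mean-centred log2 intensities. Nearest to *tbrd-1* were *CG13675*, the long noncoding RNA gene *CR43097* and the carbonic anhydrase gene *CAH5*, at 0.29, 0.57 and 0.66, all of them called as lower. Nearest to *tbrd-2* were *PpD6*, a protein phosphatase gene, *CG1138* and *CG42724*, at distances of 0.12, 0.12 and 0.13. Their log2-fold changes were 0.59, 0.41 and 0.35. Nearest to *tbrd-3* were *blanks*, which encodes an RNA-binding protein of the testis, *CG31109* and *Art6*, at 0.04, 0.05 and 0.05, with log2-fold changes of -0.06, -0.12 and -0.13. The distance weighs the size of a change, so that a gene with a flat profile lies near others that are flat. Likewise, the direction in which the genes nearest to *tbrd-1* and *tbrd-2* moved follows from how they were picked.

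Marker lists moved as follows on the adjusted p alone. Of all 11982 genes with 1 probe set each, 2726 were higher and 2303 lower, and the median log2-fold change was 0.03. In the mutant 4 of 14 spermatocyte genes were higher and 2 lower (median log2-fold change 0.13). This list shares *mia*, *sa*, *can* and *nht* with the tTAF list, so the results of these lists are not separate. Of 16 spermatid genes 3 were higher and 3 lower (0.02), and of 4 spermatogonium genes 2 were higher (0.21). Of 6 cyst and hub genes 1 was higher and 1 lower (-0.05), of 7 muscle genes 4 were lower (-0.39), and of 11 accessory gland genes 1 was lower (-0.07). For 19 gut enzyme genes the median was -1.16, yet 2 were higher and 0 lower. Their mean log2 intensity differed widely within the groups, from 4.92 to 7.13 on the mutant arrays and from 4.95 to 8.24 on the wild-type arrays. For *Ebp* and *EbpII* the median was 1.79 with 0 past the test (limma's unadjusted p and the methods' t-test also gave 0 under 0.05). For 6 fat body genes it was 0.16 with 1 higher and 1 lower. With the fold minimum, *mia*, *vis* and *dj* were called as higher and *can*, *s-cup* and *Yp3* as lower, at log2-fold changes of 1.65, 1.96, 1.09, -1.11, -1.04 and -3.80. *Yp3* was the lower gene of the fat body list. By qPCR the study also found *Yp3* reduced in mutant testes, against both wild-type and mutant testes carrying the *tbrd-1-eGFP* transgene. A dimmer *s-cup* probe set gave 0.11, and the call of *s-cup* was lost with median centring (-0.94), without mutant replicate 2 (-0.97), without the gut-rich arrays (-0.997) and without the *Ebp*-rich arrays (-0.95). The part of these lists in the changes of *Br140*, *tbrd-2* and *nej* was not tested.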

How the data were processed

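Total RNA from testes was measured on 10 Affymetrix Drosophila Genome 2.0 arrays. Linear intensity values, deposited by the authors as 1 table, were made by RMA with Affymetrix Expression Console (versions not given in the sources used here), rounded to whole numbers and without detection calls. RMA includes a normalization between arrays, which can reduce a change shared by most genes, yet the deposited array medians still differ. Log2 was taken, 18769 probe sets, without the 183 controls, were fitted in limma 3.58.1 under R 4.3.3, genotype as the single term. Intervals are limma's 95% intervals. Plots used matplotlib 3.10.9. Depth does not apply to arrays, and their number limits the precision.

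Genes came from the platform annotation (13647 probe sets with 1 gene, 402 with several, 4720 with none), and 13544 symbols were updated through a Release 6 gene table. For lists, a gene was read from its brightest probe set by mean log2. Beside the bromodomain genes themselves, lists were read for other bromodomain, tTAF, general TFIID, Brahma, Gcn5, and Br140 and BRWD3 partner genes, and markers of spermatogonia, spermatocytes, spermatids, cyst and hub cells, muscle, accessory gland, ejaculatory bulb, gut and fat body. Members, lists and tests were chosen with earlier results of these data known. Named were all members, called genes and up to 3 genes with the smallest p of each partner list, called markers, *TfIIA-S* and the nearest profiles; *enok*, *Cul4*, *dikar*, *E(bx)*, *Zmynd8*, *sa*, *nht*, *Tbp*, *mor*, *Snr1* and *Bap60* were added to complete their groups after their values were seen, and have no alternatives of their own. Alternatives were the methods' t-test (named in 1 legend of the study, while another names limma and the Methods neither), other priors and weights, arithmetic means, median centring, filters, control probe sets kept, the replicate block, and arrays left out. On simulated data for this comparison (18769 probe sets, 50 changed per size), limma's adjusted p found 68% at a log2-fold change of 0.5, 72% at -0.5 and 100% at 1.5 and -1.5. Far fewer probe sets were changed there than the 36.2% that passed in the data. The adjustment was therefore stricter, and these shares do not carry over to the measured arrays.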

Additional observations from a re-analysis of the deposited data

Results flagged for a closer look

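In 64 groups of 5 arrays, those of the 10 bromodomain probe sets, of the partner genes named by the rule and of the called markers, 1 held an array far from the others. *pic*, a partner gene of BRWD3, had an intensity of 661 on wild-type replicate 3, where the other wild-type arrays lay between 712 and 720. Chance alone gives about 1 in 20 such groups. No array of a bromodomain gene stood apart in this way.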

How the results depend on the processing

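Without a fold minimum 6803 probe sets passed, 4052 higher and 2751 lower, and 4 of the 10 bromodomain probe sets. On the adjusted p alone 3618 probe sets passed without the gut-rich arrays and 2196 without the *Ebp*-rich arrays, where fewer arrays remained. Without the *Ebp*-rich arrays 2 bromodomain probe sets passed, with 1 other bromodomain gene, 2 general TFIID genes, and 0 each of the Brahma, Gcn5, and Br140 and BRWD3 partners. Without the gut-rich arrays it was 2 general TFIID genes and 4 Gcn5 partners. With the fold minimum 2 bromodomain probe sets were called, *Br140* being added, with arithmetic means (log2-fold change 1), median centring (1.10) and without the gut-rich arrays (1.19). Leaving out single arrays gave 1 to 2 calls and 0.93 to 1.06 for *Br140*, past the minimum without mutant replicates 1 and 3 and wild-type replicates 3 and 4.

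For *tbrd-2*, past the threshold by little, the methods' t-test gave 0.52 with an adjusted p of 0.052, and single arrays left out gave 0.42 to 0.64. It was 0.53 without the gut-rich arrays and 0.66 without the *Ebp*-rich arrays, both with fewer arrays. The brighter *nej* probe set had 0.38 in the last setting. *Taf1* passed with a robust prior and without the dimmest probe sets (0.24 in both), with median centring (0.34) and without the gut-rich arrays (0.41), and had 0.19 to 0.29 with single arrays left out. Values near 0 changed sign without passing the test. These were *BRWD3* with median centring (0.029) and without the gut-rich arrays (0.013), *brm* with array weights (0.0082) and median centring (0.10), and *blanks* with median centring (0.046). With single arrays left out, *brm* ran from -0.050 to 0.032 and *polybromo* from -0.030 to 0.065. Where a setting does not itself explain the move, the cause was not tested. Median centring gave 368 lower and 295 higher calls, 55.5% lower in place of 66.7%.

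The labels link same-numbered arrays by a number alone. Their deviations from the group means correlated between -0.31 and 0.48. As tissue other than testis also differed between arrays, this cannot decide whether same-numbered arrays shared a batch. With the replicate block *Br140* had 0.99 with an adjusted p of 7.7e-04. Over all probe sets there were 221 higher and 499 lower calls, and no call of a bromodomain probe set changed. RMA values hold no detection calls, so the dimmest signals, such as *tbrd-1* in the mutant, have no measured background.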
